A study of Mus musculus with 4 samples.

Results

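The messenger RNAs of 8 enzymes of the mevalonate pathway were followed in small-intestinal organoids given an agonist of the liver X receptors (LXR). The genes were taken from a list of enzymes that lead from acetyl-CoA to farnesyl and geranylgeranyl diphosphate (Acat2, Hmgcs1, Mvk, Pmvk, Mvd, Idi1, Fdps and Ggps1), out of 30284 genes with a value, and all 8 were among the 13602 genes expressed enough to be tested. The organoids are 3-dimensional epithelial cultures in Matrigel, grown from crypts of 2 male C57BL/6J mice. From each mouse, 1 culture received the vehicle DMSO and 1 received GW3965, a synthetic LXR agonist, at 2 µM in the overlaying medium for 6 h, which gives 2 libraries per treatment. The age label of all 4 samples gives 9 weeks and is worded as the age when DSS (dextran sulfate sodium) was started, a treatment that the growth protocol of these cultures does not name. No modified allele is named for either group. The tissue label gives small intestine and the RNA extraction text gives colon.

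The pathway builds isoprenoids. Acetyl-CoA units are condensed to HMG-CoA and turned into mevalonate, which is phosphorylated and decarboxylated to the isoprene unit isopentenyl diphosphate. These units are joined to farnesyl diphosphate, the branch point from which cells make cholesterol through squalene, dolichol, ubiquinone and the prenyl anchors of proteins. The genes are known targets of the transcription factor SREBP-2, which is processed when sterols in the endoplasmic reticulum are low, and LXR is known for driving the opposite arm, the export of sterols. The intestinal epithelium both takes up and synthesises cholesterol.

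None of the 8 genes passed the threshold with GW3965, while 6 of them had both treated libraries below both vehicle libraries. Messenger RNA of Hmgcs1, Mvk, Mvd, Idi1, Fdps and Acat2 with GW3965 was at 50.1 to 63.9% of the DMSO level in mouse 1 and at 54.1 to 77.0% in mouse 2. Pmvk was at 81.6% and 92.2%, and Ggps1, whose enzyme makes geranylgeranyl diphosphate, at 104.5% and 94.5%. Among all tested genes, 9.18% had both treated libraries below both vehicle libraries and 9.28% had both above. In bulk RNA, fewer cells of a type and less RNA per cell cannot be told apart.

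The cultures had the RNA of small-intestinal epithelium. Epithelial markers such as Epcam, Krt8 and Vil1 summed to 23678 to 34253 CPM, the count relative to a library size scaled between libraries, and small-intestinal markers such as Lyz1, Fabp1 and Gata4 to 9996 to 12671 CPM. The colon list summed to 75.7 to 81.5 CPM, the leukocyte list to 394 to 439 CPM and the mesenchyme and endothelium list to 16.5 to 30.9 CPM. Most of the last sum was the endothelial and leukocyte gene Pecam1, with 13.4 and 25.8 CPM in mouse 1 and 14.3 and 17.0 CPM in mouse 2 (DMSO and GW3965, unadjusted p = 0.0249 in edgeR, not called). That list with GW3965 was at 187% of its DMSO sum in mouse 1 and at 114% in mouse 2. The total estimated count was 16572359 to 19486547 per library. The GW3965 library of mouse 1 stood apart, with 14.0% of its gene counts from the mitochondrial genome against 7.60 to 9.43% in the other 3. In that mouse the epithelial sum with GW3965 was 75.2% of that with DMSO, and it was 104.6% in mouse 2, and all 8 epithelial markers had a negative fitted value with none called. The median log2 difference of the 11 tested leukocyte markers was 1.02 in mouse 1 and -0.22 in mouse 2, and that of the 8 proliferation markers was -0.36 and -0.04. Most of the leukocyte sum was 1 gene, Cd74, with 293 and 234 CPM in mouse 1 and 316 and 319 CPM in mouse 2 (DMSO and GW3965). The part of these differences in the results on the pathway was not tested.

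The start regions of 4 of the genes are printed here, 2 chosen for their letters and 2 for their expression values: Hmgcs1 has the match to the longer SREBP motif and Mvk the largest number of NF-Y boxes, while Mvd had the log2 fold change farthest from 0 and Ggps1 the one nearest to 0. SREBP-2 is known to bind sterol regulatory elements beside boxes for the factors NF-Y and Sp1. Each sequence is the 250 bases before the RefSeq start on GRCm38.p6, 5′ to 3′ on the gene's strand, with matches to the SREBP motif or the NF-Y box on either strand in capitals. They lie at chr13:119690101-119690350 (plus strand, Hmgcs1), chr5:114444019-114444268 (plus strand, Mvk), chr8:122443423-122443672 (minus strand, Mvd) and chr13:14063489-14063738 (minus strand, Ggps1).
Hmgcs1: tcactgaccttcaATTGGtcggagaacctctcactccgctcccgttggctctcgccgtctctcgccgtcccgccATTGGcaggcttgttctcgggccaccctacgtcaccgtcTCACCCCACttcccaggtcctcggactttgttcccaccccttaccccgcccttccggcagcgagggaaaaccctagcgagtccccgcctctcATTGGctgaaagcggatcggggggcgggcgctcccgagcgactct
Mvk: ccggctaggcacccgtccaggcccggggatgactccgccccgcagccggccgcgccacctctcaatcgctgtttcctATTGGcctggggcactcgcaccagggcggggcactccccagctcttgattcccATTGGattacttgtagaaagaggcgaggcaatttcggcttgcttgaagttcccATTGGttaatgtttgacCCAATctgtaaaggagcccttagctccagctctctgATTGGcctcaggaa
Mvd: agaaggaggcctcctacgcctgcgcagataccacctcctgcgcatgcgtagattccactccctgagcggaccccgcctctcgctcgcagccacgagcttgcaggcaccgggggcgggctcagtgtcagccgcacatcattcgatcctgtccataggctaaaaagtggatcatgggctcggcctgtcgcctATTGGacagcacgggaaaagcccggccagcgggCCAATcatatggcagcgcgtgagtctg
Ggps1: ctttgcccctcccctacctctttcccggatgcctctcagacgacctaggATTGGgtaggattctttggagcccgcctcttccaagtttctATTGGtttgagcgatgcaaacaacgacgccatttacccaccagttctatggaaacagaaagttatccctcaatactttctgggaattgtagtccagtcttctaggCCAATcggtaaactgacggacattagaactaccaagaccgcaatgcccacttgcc

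RefSeq start windows, which run from 250 bases before to 50 after a start, were matched for 7 of the 8 genes, all but Fdps. These genes had 8 windows in all. The SREBP motif was searched on both strands as TCACNCCAC and, in a shorter form contained in it, as CACNCCAC. The longer form was found in 1 of the 7 genes, Hmgcs1, beginning 137 bases before the start. That is 1 of the 8 windows, against 1.24% of all 32817 windows. The shorter form was found in Hmgcs1 and, at 181 and 53 bases before the start, in Acat2. That is 2 of the 8 windows, against 6.24% of all windows. The NF-Y box CCAAT or its complement was present in 6 of the 7 genes, all but Acat2. That is 6 of the 8 windows, against 37.4% of all windows. Mvk had 5 such boxes, and Mvd and Idi1 had 2 each. Ggps1 had 3 and Pmvk had 1, so the box was also present in the genes whose treated and vehicle libraries overlapped. The Sp1 box GGGCGG was found in 5 of the 7 genes, or 5 of the 8 windows, against 35.6% of all windows. A match describes letters in this window and shows no binding. A missing match to these exact letters does not show that a gene lacks an element, here or outside the window. Of 10 genes of the branch from squalene to cholesterol with a window, 0 had either form of the SREBP motif.

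The first enzymes of the pathway had lower values in both treated cultures. Acat2, the cytosolic thiolase that joins acetyl-CoA units to acetoacetyl-CoA, had 67.4 CPM with DMSO and 41.9 with GW3965 in mouse 1, and 71.9 and 52.2 in mouse 2. The vehicle libraries of the 2 mice were close to each other, and the treated libraries lay below both. Its log2 fold change was -0.56 ± 0.19 (standard error of the fit, 95% interval -0.99 to -0.14). The fit behind these values, here and for the genes below, did not pair the libraries by mouse. Hmgcs1, the cytosolic HMG-CoA synthase, had 505 and 253 CPM in mouse 1 and 620.0 and 477 in mouse 2, with a log2 fold change of -0.62 ± 0.31 (95% interval -1.33 to 0.08). Its treated library of mouse 2 lay just below the vehicle library of mouse 1, so the groups were separated by 477 against 505 CPM.

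The kinases that phosphorylate mevalonate in turn differed in their values. Mvk, mevalonate kinase, had 59.4 CPM with DMSO and 32.3 with GW3965 in mouse 1, and 68.8 and 45.6 in mouse 2, and the groups did not overlap. The log2 fold change of Mvk was -0.72 ± 0.21 (95% interval -1.19 to -0.24). Pmvk, phosphomevalonate kinase, had 41.3 and 33.7 CPM in mouse 1 and 72.1 and 66.5 CPM in mouse 2. For Pmvk the mice differed more than the treatments: the treated library of mouse 2 was above the vehicle library of mouse 1, and the groups overlapped. Its log2 fold change was -0.18 ± 0.33, with a 95% interval of -0.92 to 0.57. The difference between the mice was 0.80 with DMSO and 0.98 with GW3965 on the log2 scale, mouse 2 being higher. Its log2 fold change turned to 0.28 when the DMSO library of mouse 2 was left out and to 0.23 when the GW3965 library of mouse 1 was. Those fits did not pair the libraries by mouse, and within each mouse Pmvk had a lower value with GW3965.

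The decarboxylase and the isomerase that yield the activated isoprene units had the log2 fold changes farthest from 0. Mvd, mevalonate diphosphate decarboxylase, had 75.8 CPM with DMSO and 39.3 with GW3965 in mouse 1, and 92.0 and 51.9 in mouse 2. Both treated libraries were well below both vehicle libraries, and the log2 fold change was -0.88 ± 0.21 (95% interval -1.35 to -0.41), with the 28th smallest p of 13602 genes. Idi1, the isomerase that interconverts isopentenyl and dimethylallyl diphosphate, had 254.7 and 163 CPM in mouse 1 and 338 and 183 in mouse 2. The treated libraries of Idi1 were closer to each other than its vehicle libraries were. The log2 fold change of Idi1 was -0.78 ± 0.24 (95% interval -1.31 to -0.24).

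The prenyl synthases at the end of the pathway differed from each other in their values. Fdps, farnesyl diphosphate synthase, had 231 CPM with DMSO and 122 with GW3965 in mouse 1, and 276 and 209.5 in mouse 2. The groups did not overlap, and the log2 fold change of Fdps was -0.61 ± 0.28 (95% interval -1.24 to 0.02). Ggps1 had 22.0 and 23.0 CPM in mouse 1 and 21.3 and 20.1 in mouse 2. All 4 libraries of Ggps1 lay within 20.1 to 23.0 CPM, the groups overlapped, and its log2 fold change was -0.01 ± 0.19 with a 95% interval of -0.43 to 0.42. That interval overlaps the intervals of the other members, and the difference between Ggps1 and the other members was not tested.

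**Figure D1:**
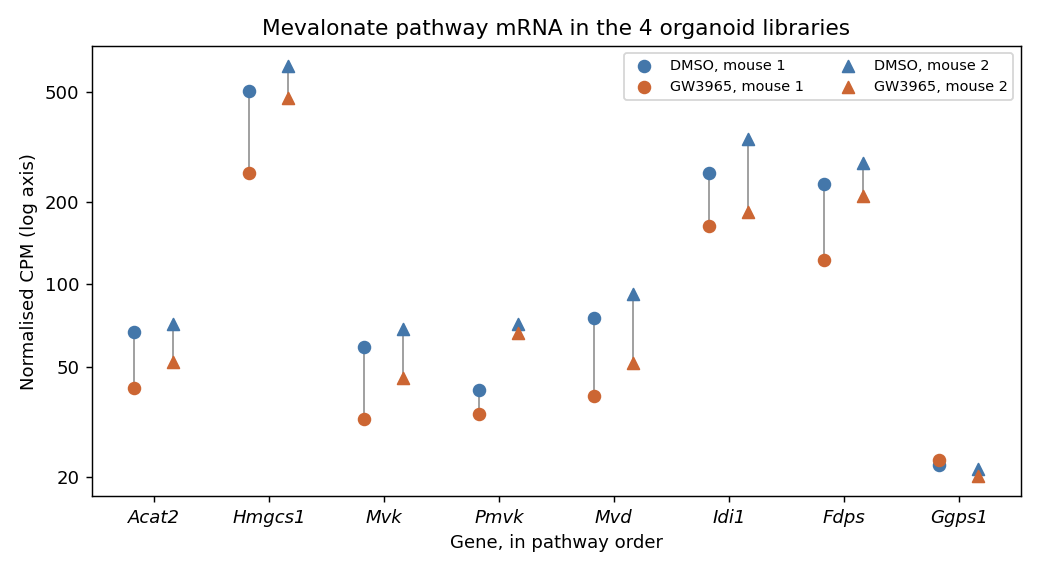
Normalised CPM on a log axis for the 8 genes in pathway order, 1 point per library, with the DMSO (blue) and GW3965 (orange) cultures of a mouse joined by a grey line (circles, mouse 1; triangles, mouse 2). Orange lies under blue in both mice for 7 genes, and for Ggps1 the 4 points lie between 20.1 and 23.0 CPM.

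By the quasi-likelihood test of edgeR, with p adjusted by Benjamini-Hochberg across the 13602 genes, 0 of the 8 were past an adjusted p of 0.05, where 0.0588% of all tested genes were called and 0.0% were called lower. The smallest adjusted p was 0.958, for Mvd. By unadjusted p alone, 4 of the 8 were lower at 0.05 (Mvd, Mvk, Idi1 and Acat2, with unadjusted p of 0.00201, 0.00754, 0.00886 and 0.0151), against 0.382% of all tested genes. DESeq2 and limma-voom also called 0 of the 8, with 6 and 5 of them lower at an unadjusted p under 0.05 (0.283% and 0.485% of all genes in those fits), and DESeq2 called 0.0144% of all genes lower. With the mouse as a block in edgeR, 0 of the 8 were called as well (0.353% of all genes, 0.125% lower), Mvd having an adjusted p of 0.0719. In that fit 6 of the 8 had an unadjusted p under 0.05, against 0.625% of genes being lower at it. The median log2 fold change of the 8 was -0.62, beside 0.00 over all 13602 genes, and 1.15% of genes lay below that median. The 8 genes were listed as 1 pathway with earlier results of these libraries known, so their common direction is a description.

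The values of the 2 mice are given side by side, mouse 1 being the one whose GW3965 library stood apart. In mouse 1, GW3965 against DMSO was lowest for Hmgcs1 at 50.1% (95% exact interval of the count ratio 48.3 to 52.0), Mvd at 51.9% (47.3 to 57.0), Fdps at 52.9% (50.2 to 55.8) and Mvk at 54.4% (49.0 to 60.4). Acat2 was at 62.2% (56.6 to 68.3) and Idi1 at 63.9% (61.0 to 67.0). These intervals cover counting error alone and say nothing of the spread between cultures. In mouse 2 the order was another: Idi1 was lowest at 54.1% (51.9 to 56.4), followed by Mvd at 56.5% (52.2 to 61.1) and Mvk at 66.3% (60.8 to 72.3). Acat2 was at 72.7% (66.9 to 78.9), Fdps at 76.0% (72.9 to 79.2) and Hmgcs1 at 77.0% (74.9 to 79.2). Mvd was thus second lowest in each mouse, whereas Hmgcs1 was lowest in mouse 1 and only sixth lowest of the 8 in mouse 2. With 1 library per mouse and treatment, whether the response differs between the mice could not be tested.

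For Ggps1 the intervals were 90.7 to 120.3% in mouse 1 and 82.0 to 109.0% in mouse 2, both spanning 100%. Pmvk had 73.1 to 91.0% and 85.4 to 99.6%. Of the 7 genes lower in both mice, 6 were farther from DMSO in mouse 1, all but Idi1, and among all genes lower in both mice that share was 69.5%. Genes lower in both mice made up 17.2% of all tested genes. The median log2 difference of the 8 was -0.78 in mouse 1 and -0.43 in mouse 2, beside medians over all genes of 0.00 in both. In mouse 2 all 8 had a lower value with GW3965, where 50.7% of all tested genes did, and the interval of Ggps1 spans 100%.

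**Figure D2:**
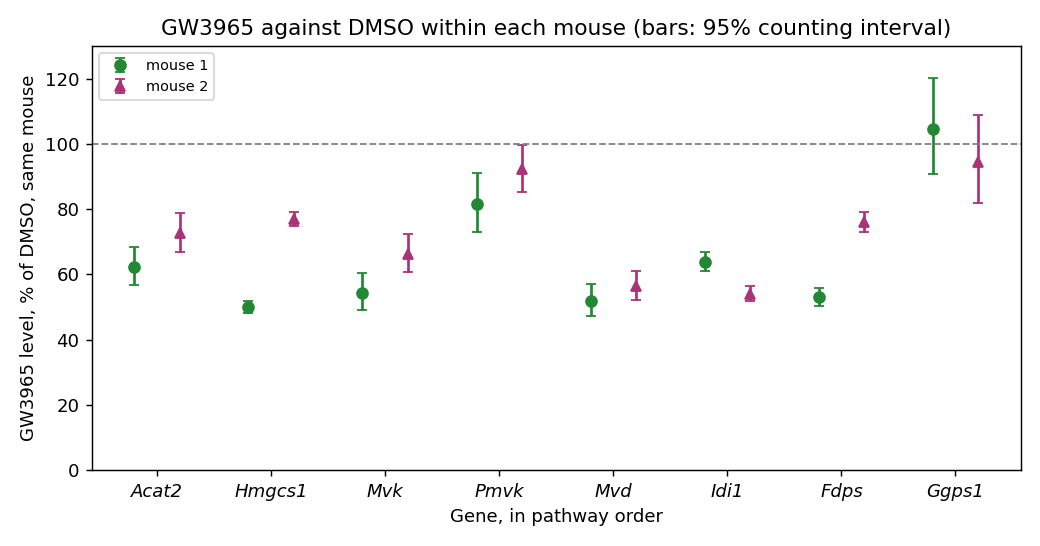
Level with GW3965 as a percentage of the DMSO level of the same mouse (circles, mouse 1; triangles, mouse 2), with bars for the 95% exact counting interval and a dashed line at 100%. Hmgcs1 and Fdps show the widest gaps between the mice (50.1 against 77.0% and 52.9 against 76.0%), while Mvd is at 51.9 and 56.5%.

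Leaving out the GW3965 library of mouse 2 moved the calls among the 8, and leaving out any other single library did not. Without the GW3965 library of mouse 2, 4 of the 8 were called lower (Mvk, Mvd, Hmgcs1 and Fdps, the smallest adjusted p being 0.0364), where 0.595% of all genes were called, 0.191% lower, and 12.6% were lower by unadjusted p alone. Leaving out the GW3965 library of mouse 1 instead, the one with the high mitochondrial share, 0 of the 8 were called (0.389% of all genes, 0.173% lower), Mvd having an adjusted p of 0.0536 in edgeR. There 4 of the 8 were lower by unadjusted p, against 2.42% of all genes, and their median log2 fold change was -0.34. These fits give the lone library the spread of the other treatment.

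Levels corrected for transcript length, in TPM (a share of all transcripts of the library, so that it also moves with the mitochondrial share), were highest for Fdps, Hmgcs1 and Idi1. With DMSO, Fdps stood at 251 ± 21.4 (SD, n = 2), Hmgcs1 at 194 ± 20.3 and Idi1 at 156 ± 32.2, and the vehicle libraries of neighbours in this order did not overlap. The gap between Hmgcs1 and Idi1 was narrow, with 179.4 TPM for Hmgcs1 in mouse 1 and 178.5 TPM for Idi1 in mouse 2. In the GW3965 library of mouse 1 their order was reversed, with Idi1 at 76.3 TPM and Hmgcs1 at 75.9 TPM. Pmvk at 58.6 ± 20.3 TPM, Mvk at 57.9 ± 1.55 and Mvd at 55.8 ± 5.43 could not be ordered, since their libraries overlapped. Acat2 followed at 36.1 ± 0.32 TPM and Ggps1 was lowest at 10.4 ± 0.64 TPM, 24.1-fold below Fdps. Fdps, Hmgcs1 and Idi1 together held 70.7 to 73.3% of the summed TPM of the 8 genes in every library. That sum was 748 and 891 TPM with DMSO and 364 and 662 TPM with GW3965 in mouse 1 and mouse 2. Fdps was highest and Ggps1 lowest in all 4 libraries.

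**Figure D3:**
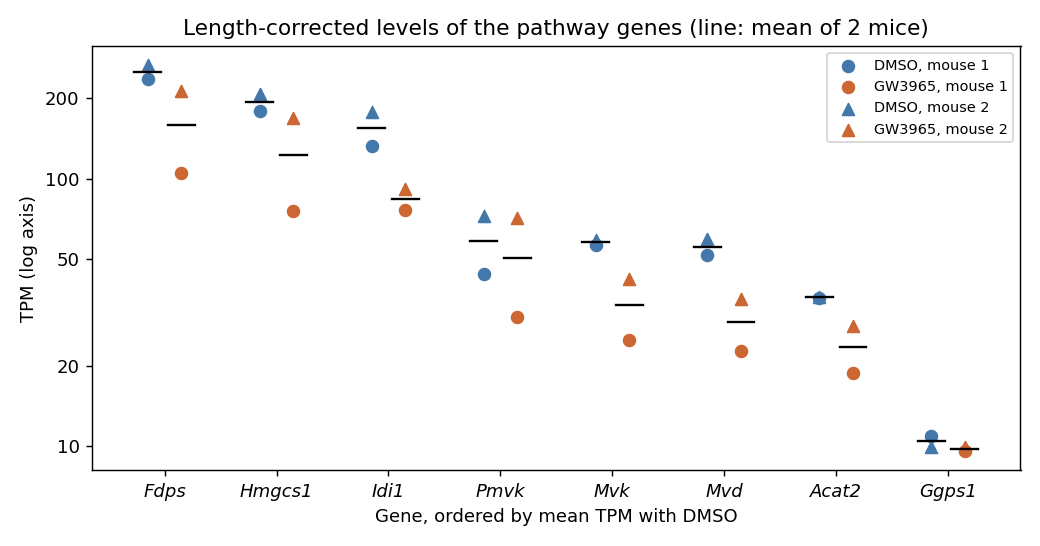
TPM on a log axis for the 8 genes, ordered by their mean with DMSO, with 1 point per library (blue, DMSO; orange, GW3965; circles, mouse 1; triangles, mouse 2) and a black line at each mean of 2 mice. The levels run from 251 TPM for Fdps to 10.4 TPM for Ggps1, and the 3 genes near 55.8 to 58.6 TPM overlap.

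The pathway was also higher in the cultures of mouse 2 than in those of mouse 1. In 7 of the 8 genes, all but Ggps1, mouse 2 was above mouse 1 with DMSO and with GW3965, where 25.0% of all tested genes had that order. With DMSO the log2 difference between the mice was 0.09 for Acat2, 0.21 for Mvk, 0.26 for Fdps, 0.28 for Mvd, 0.30 for Hmgcs1 and 0.41 for Idi1. With GW3965 it was larger for Hmgcs1 (0.92), Fdps (0.78), Mvk (0.50), Mvd (0.40) and Acat2 (0.32), and smaller for Idi1 (0.17). The treated library of mouse 1 was therefore the lowest of the 4 for 7 genes, all but Ggps1. The difference between the mice was not tested.

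The files hold 22 transcripts of the 8 genes, of which 18 passed the filter on low counts, and 4 genes (Hmgcs1, Mvd, Fdps and Ggps1) have a single one. In the edgeR test on transcripts 0 of the 18 were called, as were 0 of all 32357 (0.0%), and 2 were lower at an unadjusted p under 0.05, Mvd-201 and Idi1-201. The share of all transcripts lower at that unadjusted p was not computed, so these 2 cannot be set against it. Acat2-201 held 92.6 to 95.5% of the TPM of Acat2, and Pmvk-201 held 92.8 to 94.4% of that of Pmvk. Idi1-201 held 62.7 to 71.8% of the TPM of Idi1 and Idi1-204 held 25.1 to 35.1%. Idi1-201 had 4642 and 2467 estimated counts in mouse 1 and 5861 and 3294 in mouse 2 (DMSO and GW3965), so both treated libraries were lower. For Mvk the counts were divided among 6 of its 7 transcripts, the other being at 0, in shares that varied between libraries: Mvk-205 held 27.2, 3.60, 15.7 and 26.5% of its TPM in the DMSO and GW3965 libraries of mouse 1 and of mouse 2. With single-end reads of 50 bases such shares are estimates, and the sum over the gene is used for Mvk.

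Several of these genes have near copies in the genome, and kallisto divides reads that fit more than 1 transcript. Of the 31-base stretches of Acat2, 44.2% also occur in Acat3, a close relative, yet Acat3 had 31 to 43 estimated counts where Acat2 had 688 to 1356. Tcp1, a subunit gene of a chaperonin, holds 13.4% of the stretches of Acat2 and had 4251 to 5317 counts, so the division of reads between Acat2 and Tcp1 bears on the value of Acat2 and was not tested. Fdps shared 72.6% of its stretches with the genes Gm3571, Gm5873 and Gm8163, which together had 2 to 13 counts against 2008 to 5201 for Fdps. Idi1 shared 18.4% with Gm13502, which had 98 to 188 counts against 2673 to 6374. Hmgcs1, Pmvk and Mvd shared no stretch with another gene, though Mvd overlaps Gm20388 on the other strand. Ggps1 overlaps Arid4b on the other strand and shared 5.39% of its stretches with it. The sources used here do not give whether the counting was stranded, so reads from the stretches that Ggps1 and Arid4b share cannot be told apart.

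The related enzymes outside the pathway had other values. Idi2, the second isomerase gene, had 0 counts in all 4 libraries, which allows at most 0.154 to 0.183 CPM at 3 counts per library. Acat1, the mitochondrial thiolase, had a log2 fold change of -0.07 ± 0.21, and Acat3 had 0.23 ± 0.40. None of the 9 genes of acetyl-CoA supply and neighbouring thiolases passed the test, at an adjusted or an unadjusted p under 0.05, and their median was -0.03. Acly, ATP citrate lyase, which makes cytosolic acetyl-CoA, had 108 and 67.3 CPM in mouse 1 and 104 and 108.6 in mouse 2, and Acss2, an acetyl-CoA synthetase, had 34.9 and 24.9 CPM and 33.2 and 36.5 CPM. Both had lower values with GW3965 in mouse 1 and not in mouse 2.

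Downstream of farnesyl diphosphate the branches had different values. In the branch from squalene to cholesterol, 0 of 13 genes were called in edgeR (0.0588% of all tested genes), and the median was -0.55. At an unadjusted p under 0.05 in edgeR, 7 were lower, against 0.382% of all tested genes. Both treated libraries lay below both vehicle libraries for 10, against 9.18% of all tested genes. Leaving out the GW3965 library of mouse 2 gave 7 called in this branch, in the fit that called 0.191% of all genes lower and whose treated side is the library with 14.0% mitochondrial counts alone. Lss, lanosterol synthase, had 119 and 64.3 CPM in mouse 1 and 151 and 98.1 CPM in mouse 2, and Nsdhl, a sterol dehydrogenase, had 48.3 and 24.1 CPM and 49.6 and 37.7 CPM. Among the 15 tested of 16 genes for long-chain prenyl chains, dolichol and ubiquinone, 0 were called and 0 had an unadjusted p under 0.05. Of these 15, 3 had both treated libraries below the vehicle ones (9.18% of all tested genes), and the median was -0.06. Dpm1, a subunit of dolichol phosphate mannose synthase, had 0.25 ± 0.21 and Dhdds, of the cis-prenyltransferase that makes the dolichol chain, had -0.19 ± 0.19 on the log2 scale. Among the 15 genes of protein prenylation and other prenyl use, 0 were called and 0 had an unadjusted p under 0.05. In this list 2 had non-overlapping lower groups (9.18% of all tested genes), and the median was -0.03. Cox10, which attaches a farnesyl chain to haem, had a log2 fold change of -0.31 ± 0.25. The difference between the branches was not tested.

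**Figure D4:**
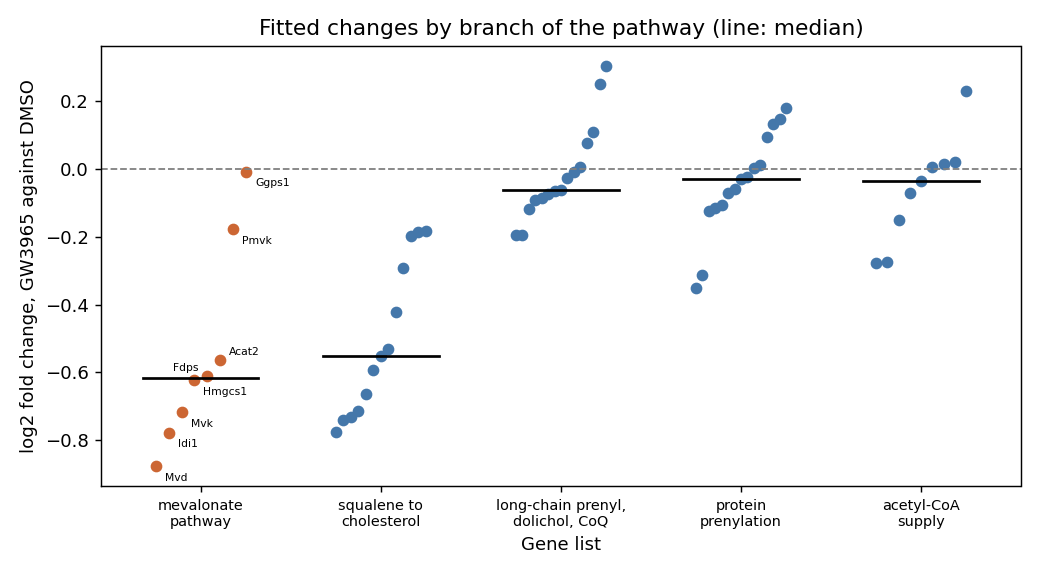
Fitted log2 fold change, GW3965 against DMSO, for each tested gene (points, sorted within a list) of 5 lists, with a black line at each list's median and a dashed line at 0. The medians are -0.62 for the mevalonate pathway (orange, named) and -0.55 for squalene to cholesterol, and lie between -0.06 and -0.03 for the other 3.

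Among the genes that control SREBP processing, 1 was called. Of 10 tested genes of 11 listed, 1 rose, Srebf1, the gene of SREBP-1 and a direct LXR target, from 73.0 to 398 CPM in mouse 1 and from 78.4 to 476.9 in mouse 2 (log2 fold change 2.53 ± 0.24, adjusted p = 0.00525 in edgeR), and 0 fell. Srebf2, which encodes SREBP-2 itself, had 281 and 188 CPM in mouse 1 and 302 and 279 CPM in mouse 2, a log2 fold change of -0.32 ± 0.25. Insig1, a sterol-dependent retention factor, had 180 and 135 CPM and 275 and 225 CPM (-0.34 ± 0.30), and Scap, the sterol sensor that carries SREBP to the Golgi, had -0.01 ± 0.18. Of 7 other genes known as SREBP-2 targets, 0 were called and 0 had an unadjusted p under 0.05, with a median of -0.16. Among them Tmem97 had a log2 fold change of -0.28 ± 0.19. Of 9 direct LXR targets in the same libraries, 6 rose and 0 fell: the sterol exporters Abca1 (5.54), Abcg1 (4.35), Abcg5 (2.06) and Abcg8 (2.00), the desaturase Scd2 (2.91) and Srebf1, with log2 fold changes in brackets.

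By Pearson correlation of log2 CPM over the 4 libraries with the mean of the 8 genes, each centred, the genes outside the list with the closest pattern were Foxo6, Fam122a, Sh2b2, Lss and Pdp2, each at 0.999. This correlation takes no account of the size of a difference. The log2 fold changes of the 5, in that order, were -0.62, -0.28, -0.29, -0.73 and -0.11. Sh2b2 had only 0.49 to 0.69 CPM and Foxo6 0.91 to 1.91 CPM over the 4 libraries. With 4 libraries 46 genes exceeded 0.99, and Lss was the only one of these 5 from the sterol lists. Of the pathway genes themselves Mvk and Fdps were at 0.99, Hmgcs1 at 0.98, Mvd and Acat2 at 0.97, Idi1 at 0.93 and Pmvk at 0.74, each being part of the mean, and Ggps1 was at -0.49.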

How the data were processed

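Poly-A RNA of 4 organoid libraries was sequenced as single-end reads of 50 bases from a stranded kit, with RNA integrity numbers above 8, per the labels' protocols. The submitters' processing notes name kallisto, CASAVA 1.7, FastQC and mm10. For each transcript the authors deposited estimated counts from kallisto, not normalised, and TPM, per the file headers. The authors also deposited the same counts rounded to whole numbers, and a table of log2 CPM for 8524 genes. The sources used here do not give the annotation release.

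Estimated counts of 86119 of 88198 transcripts (97.6%) were summed over 30284 GENCODE M21 genes and rounded. The unmatched transcripts held 0.69 to 0.85% of a library's counts and were left out. The gene test was edgeR 4.0.16 under R 4.3.3 (filterByExpr, TMM, glmQLFit, glmQLFTest, treatment alone, 2 residual degrees of freedom), adjusted over all 13602 genes, and checked on simulated data. Standard errors come from the F statistic. DESeq2 1.42.0 and limma 3.58.1 were alternatives. Deviations of libraries of the same mouse number from their group means correlated at 0.07. The labels give 1 mouse for each number, so the fit was repeated with mouse as block. That fit has 1 residual degree of freedom and an infinite prior, and its p does not reflect a gene's own spread. The labels do not say that cultures were prepared separately. The pathway genes and lists were chosen with earlier results of these data known. Spring1, of the SREBP list, and Trdc, of the leukocyte list, were not matched. The text names all 8 pathway genes and their near copies, and from each other list the called genes or otherwise the pair with the smallest p. Genes added after their values were seen are Srebf2, Insig1, Scap and Cd74. Epcam, Krt8, Lyz1, Fabp1 and Gata4 are named only as examples of their marker lists. Some genes that this rule names are not reported here.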

Additional observations from a re-analysis of the deposited data

How the results depend on the processing

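Of 15 alternative settings, 14 called 0 of the 8 pathway genes, and 4 were called without the GW3965 library of mouse 2, so that over the leave-one-out fits the count ran from 0 to 4. The mouse as replicate block changed no call among the 8 (0 called, median -0.67, Mvd adjusted p 0.0719) but raised the count over all genes from 8 to 48. That count was 19 with DESeq2, 20 with limma-voom, 13 with scaling by the total count alone, 14 with no filter on low counts, 17 with limma on log2(TPM + 1), 0 with limma on the authors' log2 CPM, and 38 to 84 when a library was left out. With the authors' log2 CPM 6 of the 8 were lower at an unadjusted p under 0.05 (2.48% of all genes), and the called counts of the SREBP control list and the direct LXR targets were both 0 in place of 1 and 6. The median of the 8 was -0.75 to -0.51 in the settings that kept all 4 libraries and -0.93 to -0.34 when 1 was left out. The squalene list had 7 called without the GW3965 library of mouse 2 and 0 otherwise.

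Directions turned with single libraries left out: values ran from -0.75 (GW3965 of mouse 2 out) to 0.28 (DMSO of mouse 2 out) for Pmvk, which was at 0.23 with GW3965 of mouse 1 out, and from -0.10 to 0.084 for Ggps1, which was at 0.02 with DMSO of mouse 1 out and at 0.0017 without mitochondrial genes. They ran from -0.17 to 0.035 for Acat1, -0.15 to 0.54 for Acat3, -0.66 to 0.029 for Acly and -0.45 to 0.099 for Acss2. The leave-one-out fits did not pair the libraries by mouse. Within the mice, Pmvk with GW3965 was at 81.6% (mouse 1) and 92.2% (mouse 2) of DMSO. For the genes that turned, the cause was not tested. Acat2, Hmgcs1, Mvk, Mvd, Idi1 and Fdps had negative values in all 15. Counting error was largest for Ggps1, with 377 to 428 estimated counts, whereas its fitted standard error of 0.19 was below those of Hmgcs1 (0.31), Fdps (0.28) and Idi1 (0.24).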
